A study of Mus musculus with 8 samples.

Results

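Cultured mouse hippocampal neurons were compared between a late period (180 and 300 min) and an early period (0 and 30 min) of exposure to the GABA-A receptor blocker bicuculline. The late side held 4 arrays, 2 at 180 min and 2 at 300 min, and the early side held 4 arrays, 2 at 0 min and 2 at 30 min, so that all 8 of the 8 arrays of the study were used. Sides were formed from the labelled times alone. The question was which genes were higher or lower at both late times, including shifts too small to be called between 2 times with 2 arrays each. The readout was the signal of 19938 genes on Affymetrix Mouse Gene ST 1.0 arrays, given on a log2 scale, where a difference of 1 means that one signal is 2 times the other.

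The neurons came from the hippocampus of E17.5 embryos of the outbred ICR strain, carried no engineered allele named in the labels, and had been in culture for 10 days. The labels give 50 µM bicuculline for every group, and the 0 min arrays were taken as cultures with no time of exposure. The labels named no culture kept for 180 or 300 min without bicuculline, so time in the dish and time in the drug cannot be told apart. The 2 arrays of a time were labelled as biological replicates, without saying whether they came from separate dissections, so a p-value here reflects only how far these 8 arrays vary, which may be technical. RNA came from whole cultures, in which fewer cells of a type and less RNA per cell cannot be told apart.

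GABA-A receptors carry the main fast inhibition of the hippocampus, and blocking them lets excitatory neurons fire in synchronous bursts. Calcium entering during these bursts switches on a first wave of transcription factor genes within minutes. These factors, together with CREB, a factor that binds cyclic AMP response elements (CREs) in promoters, are known to switch on a second wave of genes over hours. Second-wave genes encode secreted peptides, growth factors, synaptic scaffolds and inhibitors of the signalling that started the response.

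The arrays were alike in scale, with medians between 4.84 and 4.88 and correlations between replicate arrays from 0.985 to 0.990. Of the arrays, 180 min replicate 1 stood farthest from the others, with a median correlation of 0.983 against 0.987 to 0.988 for the other arrays. Of 19 measured markers of pyramidal and granule neurons all 19 lay above 4.46, the level under which 95% of olfactory receptor genes fell and a mark of background here. Markers of astrocytes were also present (13 of 14 above that level), and markers of oligodendrocyte, microglial, fibroblast and endothelial cells were dimmer (9 of 14, 10 of 13, 8 of 13 and 7 of 15).

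In the late period 215 genes were higher and 211 were lower than in the early period (limma, 2-group fit, Benjamini-Hochberg adjusted p under 0.05 over 19938 genes). These are 1.08% and 1.06% of the genes tested, and the median of all genes was −0.003. With the arrays quantile-normalized, the calls were 237 higher and 148 lower, a split of 61.6% higher against 50.5%. Most shifts were small. The median difference of the higher genes was 0.52 on the log2 scale, or 1.43-fold, and 140 of the 215 changed by less than 1.5-fold. That of the lower genes was 0.44, or 1.36-fold, and 182 of the 211 changed by less than 1.5-fold. Changes of at least 2-fold were reached by 9 higher and 2 lower genes. All 4 late arrays lay above all 4 early arrays for 205 of the 215 higher genes, beside 691 of all genes (3.47%), and below them for 203 of the 211 lower genes, beside 1068 of all genes (5.36%). The counts leaned on single arrays: without 30 min replicate 1 there were 109 higher and 71 lower genes, and without 0 min replicate 1, 180 min replicate 2 or 300 min replicate 1 there were 130 and 73, 122 and 81, and 104 and 87. Without 30 min replicate 2 they were 129 and 143, and without 180 min replicate 1, the array that stood apart, 230 and 171. Without each array in turn, 84 of the 215 higher and 57 of the 211 lower genes were called every time.

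**Figure D1:**
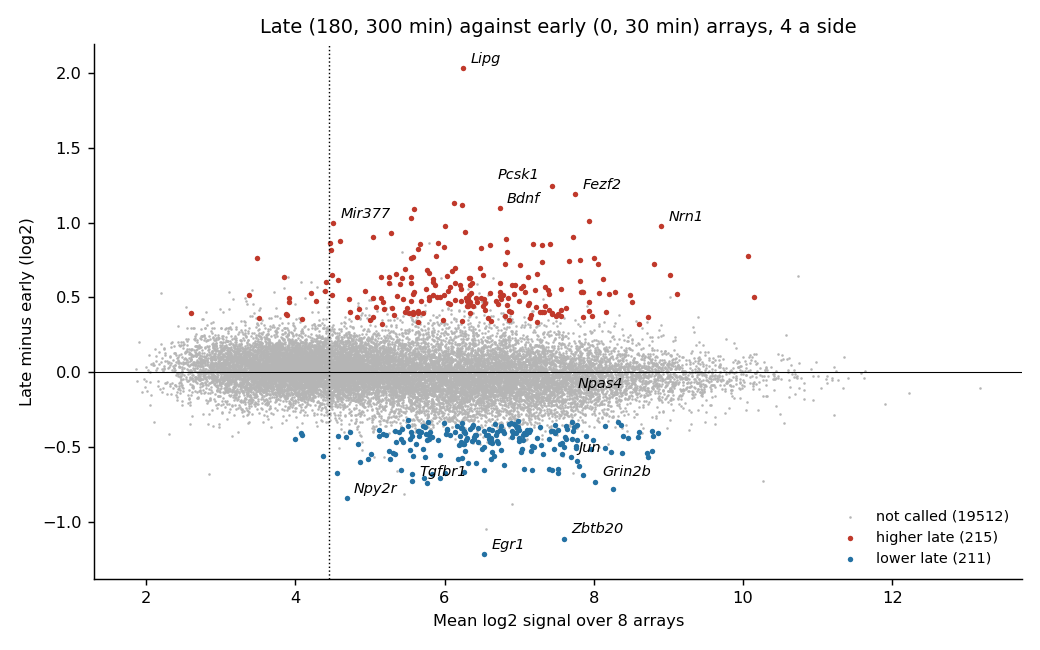
Late minus early difference (log2) of 19938 genes against their mean log2 signal over 8 arrays, with red points for the 215 genes higher late, blue for the 211 lower late and grey for the rest. The dotted line marks the background level of 4.46; 14 of the higher and 4 of the lower genes lie to its left, and Npas4, labelled near 0, was not called.

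The largest rise was that of Lipg, which encodes endothelial lipase, a secreted enzyme that cleaves the phospholipids of lipoproteins. Its signals were 5.16 and 5.15 at 0 min, 5.21 and 5.41 at 30 min, 7.06 and 7.27 at 180 min and 7.34 and 7.37 at 300 min. The lowest late array (7.06) lay above the highest early one (5.41), and the 30 min arrays stood near those of 0 min. The difference was 2.03 ± 0.09 (SE), 4.08-fold (limma adjusted p = 1.01e-08). Pcsk1, which encodes prohormone convertase 1, the enzyme that cuts peptide precursors into hormones and neuropeptides, read 6.95 and 6.93 at 0 min, 6.78 and 6.61 at 30 min, 7.78 and 8.22 at 180 min and 8.18 and 8.06 at 300 min. Its lowest arrays were those of 30 min and its highest those of the late side, with no overlap (1.24 ± 0.11 SE, 2.36-fold, adjusted p = 1.56e-05).

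Several of the large risers encode secreted signals. Bdnf, the neurotrophin that strengthens excitatory synapses, read 6.23 and 6.03 at 0 min, 6.30 and 6.22 at 30 min, 7.16 and 7.38 at 180 min and 7.28 and 7.34 at 300 min. The lowest late array (7.16) lay above the highest early one (6.30) (1.10 ± 0.09 SE, 2.14-fold, adjusted p = 8.08e-06). Inhba encodes the beta A subunit of activin, a TGF-beta family ligand, and read 5.04 and 5.14 at 0 min, 5.01 and 4.93 at 30 min, 5.62 and 6.21 at 180 min and 6.29 and 6.12 at 300 min. The late arrays were all higher than the early ones, and 180 min replicate 1 was the lowest of the late side (1.03 ± 0.12 SE, 2.05-fold, adjusted p = 0.000413). Penk, the precursor of the enkephalin opioid peptides, rose from 5.51 ± 0.16 (SD, n = 4) early to 6.49 ± 0.22 (SD, n = 4) late, a difference of 0.98 ± 0.11 (SE, adjusted p = 0.000321). Alkal2, a ligand of the receptor tyrosine kinase Alk, rose 1.91-fold (0.94 ± 0.12 SE), and Gpr3, a receptor that stimulates adenylyl cyclase without a ligand, rose 2.16-fold (1.11 ± 0.08 SE). Ism1, which encodes the secreted protein isthmin 1, also rose 2.13-fold, but its late arrays spread widely (5.36 and 4.92 at 0 min, 4.90 and 4.98 at 30 min, 5.62 and 6.57 at 180 min and 6.54 and 5.80 at 300 min). The lowest late value was that of 180 min replicate 1, yet above every early value (adjusted p = 0.00584).

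Genes of transcription factors, scaffolds and membrane proteins were the other large risers. Fezf2, a zinc finger factor of deep-layer cortical projection neurons, read 6.96 and 7.10 at 0 min, 7.26 and 7.31 at 30 min, 8.18 and 8.33 at 180 min and 8.37 and 8.50 at 300 min. It was slightly higher at 30 min than at 0 min in both replicates, and the late arrays lay above all of them (1.19 ± 0.10 SE, 2.28-fold, adjusted p = 1.13e-05). Grasp encodes a scaffold (also called tamalin) that binds metabotropic glutamate receptors, and rose 2.19-fold from 5.56 ± 0.07 (SD, n = 4) early to 6.69 ± 0.15 (SD, n = 4) late. Nrn1, which encodes neuritin, a lipid-anchored surface protein that promotes neurite and synapse growth, read 8.46 and 8.57 at 0 min, 8.49 and 8.12 at 30 min, 9.09 and 9.41 at 180 min and 9.51 and 9.54 at 300 min. The 300 min arrays were the highest and 30 min replicate 2 the lowest (0.98 ± 0.12 SE, 1.97-fold, adjusted p = 0.000413). Spry2, an inhibitor of the signalling of receptor tyrosine kinases, rose 2.01-fold. Ccnf, which encodes cyclin F, a substrate-binding part of a ubiquitin ligase, rose 1.91-fold (0.93 ± 0.08 SE). The orphan nuclear receptor Nr4a2 rose 1.87-fold, with 6.97 and 7.02 at 0 min, 7.50 and 7.59 at 30 min, 8.53 and 7.82 at 180 min and 7.86 and 8.49 at 300 min. The 30 min arrays of Nr4a2 lay between those of 0 min and the late ones, and its adjusted p of 0.0127 became 0.0483 without 0 min replicate 1.

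**Figure D2:**
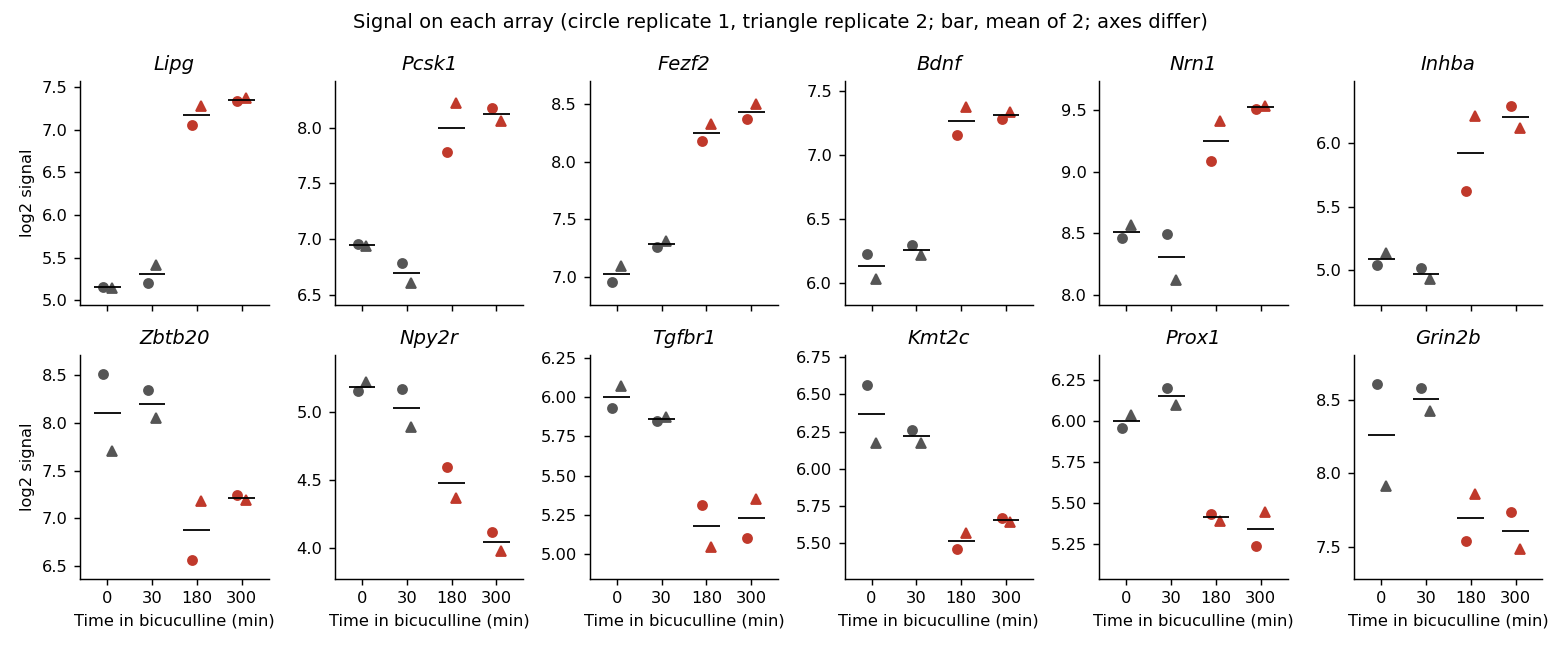
Log2 signal on each of the 8 arrays at 0, 30, 180 and 300 min for 6 genes higher late (upper row) and 6 lower late (lower row); grey is early, red is late, circles and triangles are replicates 1 and 2, and bars are means of 2 arrays. In each panel the late arrays do not overlap the early ones; Grin2b comes closest, with 7.91 at its lowest early and 7.86 at its highest late array.

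The promoters of the large risers were read for short motifs, since these genes moved together and several are textbook targets of CREB. The window was 250 bases before to 50 after each annotated start, from the RefSeq table for assembly GRCm38.p6. For the 50 genes named as the largest changes, windows on 1 chromosome were left out, and 39 of the 50 had a window among the rest. Lipg and Egr1, the largest rise and the largest fall, had none among these. A whole CRE (TGACGTCA) or its first 5 bases, the short CRE (TGACG, which counts every whole CRE as well), an AP-1 site (TGACTCA or TGAGTCA), an E-box (CACGTG), an EGR site (GCGTGGGCG), and the SRF and MEF2 motifs were searched on both strands. At least 1 motif was found in 13 of the 39 genes. The windows of the 6 with the largest differences are given 5′ to 3′ on the strand of the gene, with the motifs in capitals. In Pcsk1 a whole CRE begins 78 bases before the start, in Gpr3 the last capitals are an AP-1 site, in Inhba and in the second capital stretch of Nr4a2 they mark MEF2 motifs, and all other capitals are short CREs.
Pcsk1, chr13:75089607-75089906, + strand: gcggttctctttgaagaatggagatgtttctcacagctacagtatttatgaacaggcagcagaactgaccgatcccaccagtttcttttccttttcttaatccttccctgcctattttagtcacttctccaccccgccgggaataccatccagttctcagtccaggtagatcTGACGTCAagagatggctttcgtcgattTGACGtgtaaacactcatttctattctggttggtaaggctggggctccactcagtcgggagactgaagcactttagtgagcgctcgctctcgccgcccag
Gpr3, chr4:133212487-133212786, - strand: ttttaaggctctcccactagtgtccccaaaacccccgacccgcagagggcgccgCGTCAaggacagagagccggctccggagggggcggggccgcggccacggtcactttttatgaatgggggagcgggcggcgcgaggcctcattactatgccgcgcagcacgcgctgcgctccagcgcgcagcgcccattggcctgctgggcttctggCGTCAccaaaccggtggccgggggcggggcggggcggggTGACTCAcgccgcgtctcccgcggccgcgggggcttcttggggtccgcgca
Bdnf, chr2:109692186-109692485, + strand: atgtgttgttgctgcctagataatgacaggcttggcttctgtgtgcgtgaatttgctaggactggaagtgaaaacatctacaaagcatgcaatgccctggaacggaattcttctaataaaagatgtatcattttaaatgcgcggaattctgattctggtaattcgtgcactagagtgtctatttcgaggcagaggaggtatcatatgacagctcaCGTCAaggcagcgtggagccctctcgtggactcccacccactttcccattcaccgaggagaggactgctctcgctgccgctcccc
Inhba, chr13:16011601-16011900, + strand: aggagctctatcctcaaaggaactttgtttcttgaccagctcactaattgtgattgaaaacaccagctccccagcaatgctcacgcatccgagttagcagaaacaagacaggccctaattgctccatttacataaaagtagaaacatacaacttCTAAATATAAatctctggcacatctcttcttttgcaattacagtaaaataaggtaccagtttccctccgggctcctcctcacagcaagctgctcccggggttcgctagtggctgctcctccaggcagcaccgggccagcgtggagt
Alkal2, chr12:30884074-30884373, + strand: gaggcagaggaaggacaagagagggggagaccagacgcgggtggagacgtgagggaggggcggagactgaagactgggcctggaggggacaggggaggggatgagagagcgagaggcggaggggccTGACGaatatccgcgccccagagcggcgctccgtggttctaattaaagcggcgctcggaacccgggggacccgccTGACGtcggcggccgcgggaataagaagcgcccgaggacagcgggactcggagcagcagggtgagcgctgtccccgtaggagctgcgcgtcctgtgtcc
Nr4a2, chr2:57123954-57124253, - strand: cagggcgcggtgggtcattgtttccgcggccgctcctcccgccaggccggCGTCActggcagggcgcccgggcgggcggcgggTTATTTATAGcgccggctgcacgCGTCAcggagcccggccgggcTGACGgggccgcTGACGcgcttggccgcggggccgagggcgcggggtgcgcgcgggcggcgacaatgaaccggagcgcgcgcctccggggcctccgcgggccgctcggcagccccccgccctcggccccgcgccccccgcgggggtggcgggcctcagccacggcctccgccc
The Bdnf window shown belongs to 1 of its several annotated starts, the one that held a motif, and its short CRE lies 35 bases before that start. Array signals were read over the whole gene, so they do not say which start was in use.

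Short CREs were found in 82 of the 157 higher genes with a window (52.2%) and in 44 of the 170 lower ones (25.9%). Over all 32851 windows of the table the share was 20.8%, over the 15614 genes tested that had a window 28.0%, and over those above the background level 33.8%. The whole CRE was found in 11 higher (7.01%) and 3 lower genes (1.76%), beside 1.79% of all windows, 2.72% of genes tested and 3.39% of those above the background level. The AP-1 site was found in 8 higher (5.10%) and 5 lower genes (2.94%), beside 5.20% of all windows and 4.58% of genes above the background level. The E-box was in 11.5% of the higher and 11.2% of the lower genes, beside 7.15% of all windows and 11.4% of genes above the background level, so its share was near that of such genes. The EGR site was in 3.82% and 1.76%, beside 0.612% of all windows and 1.38% of genes above the background level. SRF motifs were in 1.27% and 2.35%, beside 1.63% and 1.6%, and MEF2 motifs in 3.18% and 1.18%, beside 3.19% and 2.03%. A gene was counted if any of its windows held the motif, whereas the share of all windows counts each window singly, so these 2 kinds of share are not alike. The shares of genes tested and of genes above the background level were counted as for the called genes, though numbers of windows per gene were not matched. A match says only that these letters stand in the window.

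Of 38 measured genes on a list of delayed activity-regulated genes, 21 were higher, 0 were lower and 17 did not pass, with a median difference of 0.47 beside −0.003 over all genes. Over all genes 1.08% were higher and 1.06% were lower, and the counts of this and the later lists stand beside these shares. Lipg, Gpr3, Grasp and Bdnf had the smallest p-values. The list also held smaller rises, among them Acan (0.86), the core protein of perineuronal nets, Dusp4 (0.75), a MAP kinase phosphatase, and Brinp1 (0.61). Nptx2 and Nptx1, secreted pentraxins that gather AMPA receptors at synapses, differed by 0.52 ± 0.09 (SE) and 0.37. Nptx2 read 6.69 and 6.81 at 0 min, 6.60 and 6.60 at 30 min, 7.14 and 7.29 at 180 min and 7.26 and 7.07 at 300 min, with no overlap between the sides (adjusted p = 0.00554). The count was between 17 and 22 without each array in turn. This list was compiled with results on these arrays known, and so is no independent evidence of its direction.

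Of 28 genes of neuropeptide precursors and their processing, 5 were higher and 0 were lower (median 0.12). Besides Pcsk1 and Penk these were Adcyap1, the precursor of the peptide PACAP (0.61 ± 0.09 SE, 1.52-fold), the granin Scg2 (0.53 ± 0.08 SE, 1.45-fold) and Vgf (0.52), a precursor of several secreted peptides. Scg2 read 7.54 and 7.57 at 0 min, 7.52 and 7.59 at 30 min, 8.07 and 8.21 at 180 min and 8.11 and 7.97 at 300 min. Its early arrays lay close together, and every late array was above them (adjusted p = 0.00265). Of 21 neurotrophin, growth factor and receptor genes only Bdnf was called. Of 32 genes of TGF-beta, activin and BMP signalling, Inhba, the ligand Tgfb2 (0.49 ± 0.09 SE) and the inhibitor Smad7 (0.40) were higher, and the type I receptor Tgfbr1 was lower (median −0.02). Smad7 lost the call without 30 min replicate 1 (adjusted p = 0.141).

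Of 25 inhibitors that feed back on MAP kinase signalling, 5 were higher and 0 were lower (median 0.13): Spry2, Spry4 (0.47), Dusp4 (0.75 ± 0.12 SE), and the G protein regulators Rgs2 (0.72 ± 0.09 SE, 1.65-fold) and Rgs4 (0.50). Dusp4 read 7.17 and 7.37 at 0 min, 7.67 and 7.55 at 30 min, 8.15 and 8.02 at 180 min and 8.45 and 8.11 at 300 min. It was already higher at 30 min than at 0 min in both replicates, and higher again on every late array (adjusted p = 0.00334). Spry4 reached an adjusted p of 0.0578 without 300 min replicate 1, and the list had 3 higher genes without that array or without 0 min replicate 1. Of 21 genes of NF-kappaB and inflammatory responses, the subunit gene Rel (0.47 ± 0.09 SE) and the prostaglandin synthase gene Ptgs2 (0.59 ± 0.15 SE) were higher. Ptgs2 passed narrowly, its sides overlapped (4.84 and 4.99 at 0 min, 5.19 and 5.41 at 30 min, 5.22 and 5.84 at 180 min and 5.94 and 5.79 at 300 min), and its adjusted p, just under 0.05, rose to 0.155 without 0 min replicate 1.

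Of 20 circadian clock genes, 5 were higher and 0 were lower. Per1 and Per2, which encode repressors in the clock's feedback loop, rose 1.8-fold and 1.58-fold. Per1 read 6.85 and 6.73 at 0 min, 7.04 and 6.92 at 30 min, 7.75 and 7.66 at 180 min and 7.74 and 7.78 at 300 min. The late arrays lay close together and above all early ones (0.85 ± 0.09 SE, adjusted p = 9.37e-05). Nfil3, a repressor of clock output genes, rose 1.68-fold, and the repressor genes Cry1 and Cry2 differed by 0.54 and 0.40, Cry2 with an adjusted p of 0.0631 without 300 min replicate 1. The other 15 did not pass, and the median of the list was 0.0003. The count was 3 without 0 min replicate 1, 180 min replicate 2 or 300 min replicate 1.

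Of 21 genes of glycolysis and lactate, 3 were higher and 0 were lower, and all 3 encode transporters. Slc16a1, a carrier of lactate and pyruvate, read 6.85 and 7.03 at 0 min, 6.91 and 6.85 at 30 min, 7.64 and 7.41 at 180 min and 7.58 and 7.61 at 300 min. The lowest late array (7.41) lay above the highest early one (7.03) (0.65 ± 0.09 SE, 1.57-fold, adjusted p = 0.00084). The glucose transporters Slc2a3 and Slc2a1 rose 1.44-fold and 1.48-fold, the latter with an adjusted p of 0.0178 that became 0.0659 without 0 min replicate 1. None of the enzymes on that list passed, and the median of the list was −0.04. Of 36 glutamate receptor and postsynaptic scaffold genes, Grasp and Homer1 (0.86 ± 0.09 SE, 1.81-fold) were higher and Grin2b was lower. Of 36 potassium channel genes, Kcna1 was higher (0.46 ± 0.09 SE) and Kcnq5 was lower (−0.35 ± 0.09 SE). Of 27 genes of synaptic vesicles and release, the vesicular glutamate transporter Slc17a6 was higher (0.38 ± 0.08 SE) and Pclo was lower. Without 30 min replicate 1 the adjusted p of Kcna1 was 0.0619, that of Kcnq5 0.163 and that of Slc17a6 0.0947.

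The largest falls were in genes of transcription factors, receptors and chromatin enzymes. Zbtb20, a zinc finger repressor that specifies hippocampal pyramidal neurons, read 8.51 and 7.70 at 0 min, 8.34 and 8.05 at 30 min, 6.56 and 7.18 at 180 min and 7.24 and 7.19 at 300 min. All late arrays lay below all early ones, 180 min replicate 1 was far the lowest, and the 0 min replicates stood well apart (−1.11 ± 0.17 SE, 2.16-fold lower, adjusted p = 0.00254). The other transcript cluster of Zbtb20 on the array differed by −0.43. The homeobox factor Prox1, which marks dentate granule cells, read 5.96 and 6.04 at 0 min, 6.21 and 6.10 at 30 min, 5.43 and 5.39 at 180 min and 5.23 and 5.44 at 300 min. The highest late array (5.44) lay below the lowest early one (5.96) (−0.70 ± 0.09 SE, 1.63-fold lower, adjusted p = 0.000519). Trps1, a GATA-type repressor, was 1.67-fold lower, while its other transcript cluster differed by −0.34. Myt1, a zinc finger factor of neuronal differentiation, was 1.6-fold lower. On the list of 33 repressors and neuronal identity factors, Zbtb20, Trps1, Prox1 and Rfx3 (−0.39) were lower and Fezf2 was higher (median −0.07).

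Some of the large falls were in single receptor and signalling genes, while the lists that hold such genes had few calls. Npy2r, an inhibitory receptor for neuropeptide Y, read 5.15 and 5.22 at 0 min, 5.17 and 4.89 at 30 min, 4.60 and 4.37 at 180 min and 4.12 and 3.98 at 300 min. Its lowest arrays were those of 300 min, and 3 of the 4 late arrays lay under the background level of 4.46 (−0.84 ± 0.12 SE, 1.79-fold lower, adjusted p = 0.00193). Tgfbr1 read 5.93 and 6.07 at 0 min, 5.85 and 5.87 at 30 min, 5.31 and 5.04 at 180 min and 5.10 and 5.35 at 300 min. The highest late array (5.35) lay below the lowest early one (5.85) (−0.73 ± 0.09 SE, 1.65-fold lower, adjusted p = 0.000735). Grin2b, the NMDA receptor subunit that dominates early in development, was 1.66-fold lower, with 8.61 and 7.91 at 0 min, 8.58 and 8.42 at 30 min, 7.54 and 7.86 at 180 min and 7.73 and 7.48 at 300 min. Its 0 min replicate 2 lay close to the late arrays (adjusted p = 0.0111). Wnt7a, a secreted ligand that promotes presynaptic growth, fell from 6.17 ± 0.14 (SD, n = 4) early to 5.49 ± 0.13 (SD, n = 4) late (−0.68 ± 0.09 SE). Pik3r1, the regulatory subunit of PI 3-kinase, was 1.61-fold lower, the neuronal calcium-binding protein gene Cabp7 1.59-fold lower, and the RNA-binding protein gene Raver2 1.59-fold lower. Pclo, which encodes the presynaptic scaffold piccolo, was 1.59-fold lower, with an adjusted p of 0.0193 that became 0.0695 without 30 min replicate 1.

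Of 47 chromatin modifier genes, 0 were higher, 6 were lower and 41 did not pass, with a median of −0.18 beside −0.003 over all genes. This list too was compiled with results on these arrays known, and so is no independent evidence of its direction. Kmt2c, a methyltransferase of histone H3 lysine 4 at enhancers, read 6.56 and 6.17 at 0 min, 6.26 and 6.17 at 30 min, 5.46 and 5.57 at 180 min and 5.67 and 5.64 at 300 min. The highest late array (5.67) lay below the lowest early one (6.17) (−0.71 ± 0.10 SE, 1.63-fold lower, adjusted p = 0.0014). The related enzymes Kmt2a (−0.50) and Nsd1 (−0.65 ± 0.09 SE), the acetyltransferases Crebbp (−0.39) and Kat6b (−0.36 ± 0.08 SE), and Tet1, which oxidises methylated cytosine (−0.58 ± 0.12 SE), made up the rest. Signals for 15 of the 47 lay lower on all late arrays than on all early ones, beside 5.36% of all genes. The count of 6 was 2 without 0 min replicate 1 or 300 min replicate 1, 3 without 30 min replicate 1, 300 min replicate 2 or either 180 min array, and 8 without 0 min replicate 2. With the trend on gene span described below taken out of each array, 3 were lower and the median was −0.12.

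Of 17 Argonaute, GW182 and microRNA processing genes, 0 were higher and 3 were lower (median −0.10), beside 1.08% and 1.06% of all genes. All 3 were the GW182 genes, whose products link Argonaute to the removal of poly(A) tails. Tnrc6b read 6.84 and 6.87 at 0 min, 6.88 and 6.82 at 30 min, 6.32 and 6.09 at 180 min and 6.19 and 6.21 at 300 min. The early arrays lay close together, and the late arrays were all lower (−0.65 ± 0.08 SE, 1.57-fold lower, adjusted p = 0.000519). Tnrc6a differed by −0.44 ± 0.09 (SE) and Tnrc6c by −0.38 ± 0.09 (SE), and both lost the call without 30 min replicate 1, at adjusted p = 0.084 and 0.147. The list had 1 lower gene also without 0 min replicate 1 or 180 min replicate 2, and 2 with the span trend taken out.

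Of 41 axon guidance and adhesion genes, 1 was higher and 5 were lower (median −0.08), beside 1.08% and 1.06% of all genes. The netrin receptor Dcc (−0.45), the semaphorin co-receptors Plxna1 (−0.42 ± 0.10 SE) and Plxna2 (−0.50 ± 0.10 SE), Sema4d (−0.40) and the integrin Itga6 (−0.52 ± 0.11 SE) were lower. Unc5b was higher (0.47 ± 0.09 SE). Without 0 min replicate 1 none of the list was lower, without 180 min replicate 2 there was 1, without 30 min replicate 1 or 300 min replicate 1 there were 2, and without 30 min replicate 2 or 300 min replicate 2 there were 3. With the span trend taken out 2 were lower (median −0.02), and with quantile normalization 3. Of 24 sodium, calcium and HCN channel genes, the T-type calcium channel Cacna1i was lower (−0.42 ± 0.09 SE, median −0.16). Of 20 cholesterol synthesis genes, Mvd was lower (−0.39 ± 0.08 SE, median −0.13). Differences were negative for 18 of the 20, beside 10161 of all 19938 genes. Without 30 min replicate 1 the adjusted p of Cacna1i was 0.0842 and that of Mvd 0.0956.

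Other lists held few or no calls. None of 20 GABA receptor and inhibitory synapse genes passed, which include the receptors that bicuculline blocks (median −0.02). None of 30 RNA polymerase II, Mediator and mRNA processing genes, 30 respiratory chain genes, 24 heat shock and unfolded protein response genes or 19 apoptosis and p53 target genes passed, with medians of 0.0005, −0.02, −0.003 and −0.03 in limma's 2-group fit, in which 2777 of all genes had an unadjusted p under 0.05. Of 23 cytosolic ribosomal protein genes, Rpl30 was higher (0.58 ± 0.12 SE), with an adjusted p of 0.0842 without 30 min replicate 1. The marker lists of astrocytes, oligodendrocyte lineage, microglia, endothelium, fibroblasts, interneurons and progenitors held 0 calls among 14, 14, 13, 15, 13, 17 and 16 genes, with medians between −0.08 and 0.02. Mean astrocyte marker levels ran from 6.09 to 6.31 over the early arrays and from 6.01 to 6.24 over the late ones, those of microglia from 5.06 to 5.19 and from 5.02 to 5.28, and those of endothelium and pericytes from 4.43 to 4.53 and from 4.43 to 4.63.

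**Figure D3:**
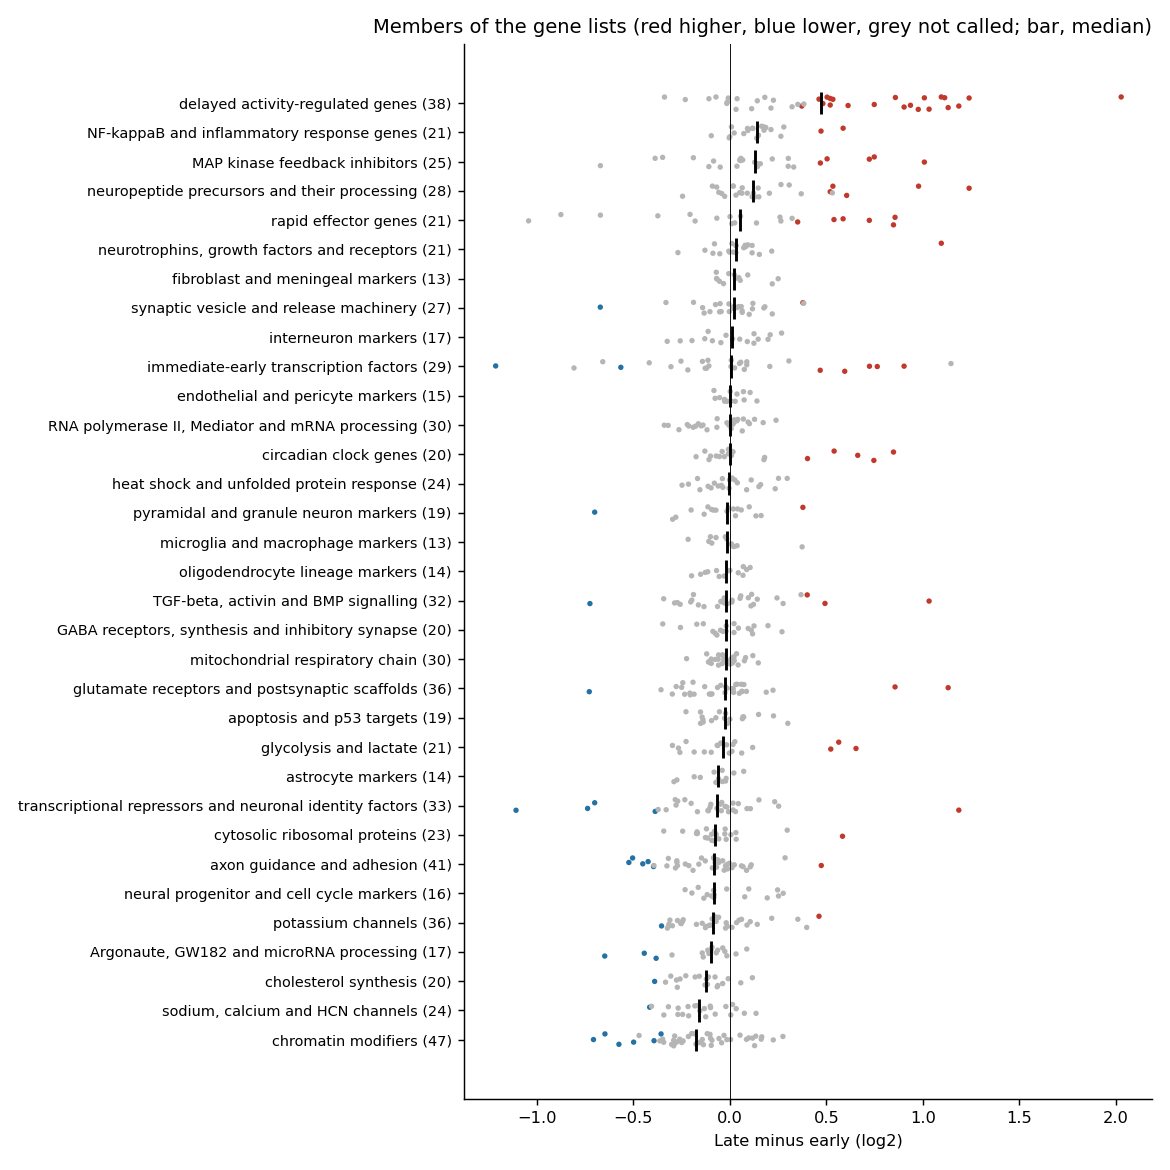
Late minus early difference (log2) of each measured member of 33 gene lists (number of members in brackets), ordered by the list median (black bar), with members called higher in red, lower in blue and the rest in grey. The list of delayed activity-regulated genes has the highest median (0.47, 21 of 38 higher) and that of chromatin modifiers the lowest (−0.18, 6 of 47 lower).

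Early and late sides were next split into their times. In a fit with a mean for each time, 19 genes (0.0953%) differed between 30 and 0 min and 0 (0%) between 300 and 180 min (limma adjusted p under 0.05), with 1018 and 1141 genes at an unadjusted p under 0.05. The same fit called 66 genes (0.331%) at 180 min and 57 (0.286%) at 300 min against 0 min, comparisons that share arrays with the pooled one. The share of the way from the 0 min mean to the late mean that a gene had covered at 30 min was then taken, as a description. At 30 min 107 of the 215 higher genes (49.8%) and 145 of the 211 lower ones (68.7%) stood within 25% of that distance from their 0 min mean. A further 81 higher (37.7%) and 34 lower genes (16.1%) had moved more than 25% of it the other way. The remaining 27 higher (12.6%) and 32 lower genes (15.2%) were already shifted by more than 25%. A difference between 0 and 30 min counts as spread in the 2-group fit, so genes that had moved by 30 min were called less readily.

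First-wave genes show this. Npas4, a transcription factor gene induced by activity, read 5.67 and 5.96 at 0 min, 9.67 and 9.72 at 30 min, 7.65 and 7.43 at 180 min and 7.54 and 7.83 at 300 min. Its 30 min arrays were the highest, its late arrays lay between those and the 0 min arrays, and the late minus early difference was −0.14 ± 0.70 (SE, adjusted p = 0.963). Fos, Nr4a1 and Arc likewise were not called (0.07 ± 0.42, 0.02 ± 0.40 and −1.04 ± 0.44, SE). All 4 differences turn sign when 1 of the early times is left out, as does that of Fosb. Fosb stayed near its 30 min level on the late arrays (5.07 and 5.34 at 0 min, 7.91 and 7.97 at 30 min, 8.11 and 7.29 at 180 min and 7.45 and 8.02 at 300 min), and missed the threshold against both early times together (1.15 ± 0.51 SE, adjusted p = 0.326). Egr1, a zinc finger factor, was called lower, with 6.47 and 6.49 at 0 min, 7.72 and 7.87 at 30 min, 6.10 and 5.81 at 180 min and 5.79 and 5.99 at 300 min. Its late arrays lay below the 0 min arrays as well as the 30 min peak, and the difference was −1.21 ± 0.25 (SE, adjusted p = 0.0199), of which −0.52 and −0.59 remained against 0 min at 180 and 300 min. Jun followed the same order at a smaller scale (−0.57 ± 0.14 SE, adjusted p = 0.0423). Both lost the call in limma's fit with 1 array fewer, Egr1 at adjusted p = 0.073 without 300 min replicate 1 and Jun at 0.131 without 30 min replicate 1. Of 29 immediate-early transcription factor genes, 5 were higher and 2 were lower: Fosl2 (0.72 ± 0.08 SE), Maff (0.60 ± 0.11 SE), Atf3 (0.76), Nr4a2 and Nr4a3 (0.47) were the higher ones. Against 0 min alone the list had 8 higher and 0 lower, and against 30 min alone 1 higher and 9 lower. The list had 3 higher and 4 lower genes without 0 min replicate 1, 3 and 0 without 180 min replicate 2, and 0 lower ones also without 300 min replicate 1 or either 30 min array. It had 1 lower gene without 180 min replicate 1 or 300 min replicate 2.

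Of 21 rapid effector genes 6 were higher and 0 were lower, with the smallest p for Homer1 and Per1. The count was 3 without 0 min replicate 1, 30 min replicate 1 or either 300 min array, and against 30 min alone it was 3 higher and 4 lower.

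Some of the higher genes dipped at 30 min. At an unadjusted p under 0.05, 25 of the 215 higher genes (11.6%) were below their 0 min level at 30 min, beside 467 of all 19938 genes (2.34%). Among the lower genes it was 5 of 211 (2.37%). Amy1, an amylase gene, read 5.88 and 6.11 at 0 min, 4.90 and 5.03 at 30 min, 6.20 and 6.37 at 180 min and 6.54 and 6.25 at 300 min. Only its 30 min arrays stood apart from the rest, and the late arrays were a little above those of 0 min. Its difference of 0.86 ± 0.21 (SE, adjusted p = 0.0416) was 0.29 at 180 min and 0.40 at 300 min when taken from 0 min alone. Clk4, a kinase of SR splicing factors, read 6.79 and 6.61 at 0 min, 6.26 and 6.17 at 30 min, 7.05 and 6.98 at 180 min and 7.24 and 7.44 at 300 min. Both 30 min arrays were the lowest and both 300 min arrays the highest (0.72 ± 0.13 SE, adjusted p = 0.0109). Paxbp1 (0.70 ± 0.12 SE, −0.49 at 30 min) and the snoRNA host gene Snhg11 (0.80 ± 0.16 SE, −0.53 at 30 min) had the same shape. Malat1, a nuclear long noncoding RNA named here after its values were seen, read 10.01 and 10.09 at 0 min, 9.28 and 9.33 at 30 min, 10.62 and 9.99 at 180 min and 10.56 and 10.66 at 300 min, and its lowest arrays were again those of 30 min. The sides of Malat1 overlapped, since 180 min replicate 2 lay below both 0 min arrays. Without each array in turn the adjusted p of Amy1 reached 0.131 and that of Snhg11 0.0754, both without 300 min replicate 1. A dip lowers the early mean, so the late minus early difference of such genes is larger than that from 0 min alone, and their share among the higher genes is not independent of the call.

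**Figure D4:**
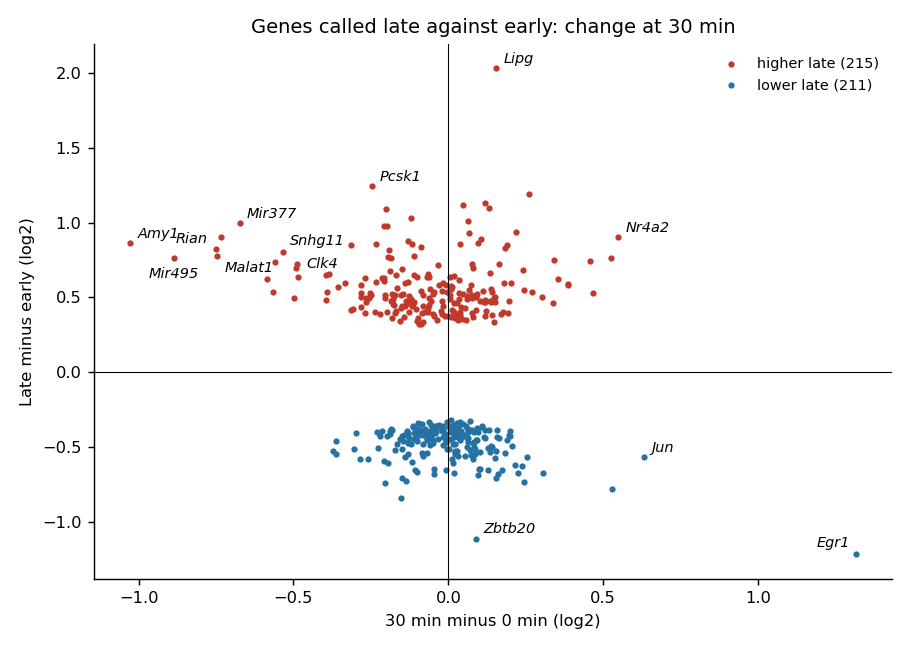
Late minus early difference (log2, vertical) against the 30 min minus 0 min difference (log2, horizontal) for the 215 genes higher late (red) and the 211 lower late (blue). Amy1 and Mir495 lie far to the left, at −1.03 and −0.89, and Egr1 far to the right at 1.32, while Lipg and Zbtb20 lie near 0 on the horizontal axis.

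Most called genes passed in the pooled comparison and not at 180 or 300 min against 0 min alone. They were 165 of the 215 higher and 187 of the 211 lower genes. This contrast between tests was not itself tested. Fam126b rose 1.81-fold (0.86 ± 0.12 SE, adjusted p = 0.0012), and Ifrd1, an interferon-related regulator, read 7.58 and 7.85 at 0 min, 7.55 and 7.51 at 30 min, 8.27 and 8.46 at 180 min and 8.29 and 8.52 at 300 min. The lowest late array (8.27) lay above the highest early one (7.85) (0.76 ± 0.10 SE, adjusted p = 0.000622). The membrane protein gene Bves and the ubiquitin ligase gene Marchf11 rose 1.79-fold and 1.72-fold, but lost the call without 300 min replicate 1 and 180 min replicate 2, at adjusted p = 0.0518 and 0.0594. The other transcript cluster of Marchf11 differed by only 0.05. Narf, which encodes a protein of the nuclear lamina, read 7.77 and 7.80 at 0 min, 7.90 and 7.88 at 30 min, 7.31 and 7.10 at 180 min and 7.08 and 7.28 at 300 min. The 4 early arrays lay close together and all late arrays were lower (−0.65 ± 0.09 SE, 1.56-fold lower, adjusted p = 0.000948). Pdcd4, an inhibitor of translation initiation, was 1.56-fold lower and Serinc5 1.56-fold lower. The protocadherin Pcdh19 (−0.65 ± 0.13 SE), the atypical cadherin Fat4 (−0.61 ± 0.14 SE), the ubiquitin ligase gene Hectd4 (−0.57 ± 0.13 SE), the kinesin gene Kif26b (−0.57 ± 0.10 SE) and Olfml2b (−0.58 ± 0.09 SE) were lower too. Fat4, Hectd4 and Pcdh19 were lowest of their early side on 0 min replicate 2, and without each array in turn their adjusted p reached 0.11, 0.103 and 0.0557.

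Between 180 and 300 min most shifts were kept. Taking the distance from the early mean, 123 of the 215 higher genes stood at 300 min within 25% of their distance at 180 min, 78 stood farther out and 14 nearer. Of the 211 lower genes 144 were kept, 19 had grown and 48 had receded. Npy2r had grown, with a 300 minus 180 min difference of −0.43, and Zbtb20 had receded by 0.34, neither past the threshold (limma, smallest adjusted p of that comparison over all genes 0.529).

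Small noncoding RNA genes were called mostly upward. Of 297 microRNA genes, 9 were higher (3.03%) and 1 was lower (0.337%), and of 53 snoRNA genes 6 were higher (11.3%) and 0 were lower, beside 1.01% and 1.12% of 18556 protein-coding genes. The array reads the gene or its precursor, not the mature microRNA. Mature microRNAs pair with target mRNAs through the seed, bases 2 to 8. Of the 9 higher genes, Mir377, Mir539, Mir495, Mir381, Mir409 and Mir134 lie on chromosome 12 between 109718757 and 109743225 (GRCm38.p6). As close neighbours these 6 are not separate support for a rise of microRNA genes as a class. How many of the microRNA genes tested lie in this stretch was not counted. The 6 genes lie in an imprinted region whose noncoding RNAs are expressed from the maternal chromosome. Of the longer noncoding RNAs there, Rian ends at 109661716, before them, and Mirg (109734981 to 109749458) holds Mir377 and Mir409. The mature sequences of the 4 microRNA genes with the largest differences are shown with the seed in capitals (RefSeq).
mmu-miR-377-5p: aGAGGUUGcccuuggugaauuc
mmu-miR-377-3p: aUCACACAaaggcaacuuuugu
mmu-miR-539-5p: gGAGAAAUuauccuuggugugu
mmu-miR-495-5p: gAAGUUGCccauguuauuuuucg
mmu-miR-495-3p: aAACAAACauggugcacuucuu
mmu-miR-381-5p: aGCGAGGUugcccuuuguauauu
mmu-miR-381-3p: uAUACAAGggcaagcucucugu
No 2 of the 18 mature sequences of the 10 called microRNA genes shared a seed. Mir377 read 4.37 and 4.32 at 0 min, 3.42 and 3.93 at 30 min, 5.35 and 4.69 at 180 min and 5.27 and 4.71 at 300 min. The 30 min arrays were the lowest and the late arrays the highest, with a difference of 1.00 ± 0.19 (SE, adjusted p = 0.0125), which reached 0.0575 without 300 min replicate 1. Mir495 had the same order at lower signals (3.48 and 3.61 at 0 min, 2.67 and 2.65 at 30 min, 3.76 and 3.79 at 180 min and 3.89 and 4.01 at 300 min), all under the background level of 4.46. Rian read 5.69 and 5.53 at 0 min, 4.78 and 4.94 at 30 min, 5.84 and 5.90 at 180 min and 6.47 and 6.04 at 300 min, again lowest at 30 min (0.83 ± 0.18 SE, 1.77-fold, adjusted p = 0.0248). Rian lost the call without 300 min replicate 1 (adjusted p = 0.0862) and Mir495 without 30 min replicate 1 (0.122). Mir539, Mir381, Mir409 and Mir134 differed by 0.90, 0.64, 0.60 and 0.45, and the other 3 higher ones, Mir670, Mir99a and Mir130a, by 0.63, 0.52 and 0.51. Mean signals of Mir381 (3.85), Mir409 (4.41) and Mir130a (3.39) were also under the background level. The 1 lower microRNA gene was Mir568, on chromosome 16, which lies inside Tigit (0.14, not called) and begins 6263 bases after the annotated end of Zbtb20. It read 5.09 and 4.40 at 0 min, 5.18 and 4.92 at 30 min, 4.04 and 4.20 at 180 min and 4.38 and 4.29 at 300 min, with 0 min replicate 2 the lowest of the early side as it was for Zbtb20 (−0.67 ± 0.14 SE, adjusted p = 0.0193, and 0.0695 without 30 min replicate 1).

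Of the called snoRNA genes, 4 lie inside host genes that were tested, and these hosts did not pass. Snord14e (0.68) lies in Hspa8 (0.01), Snora23 (0.53) in Ipo7 (−0.10), Snora75 (0.47) in Ncl (−0.08) and Snord53 (0.50) in Wdr43 (0.12). Snord95 (0.65) lies in Rack1. Snora23, Snora75, Snord53 and the further called gene Snord38a (mean 2.60) had mean signals under the background level of 4.46. That of Snord95 (4.50) was just above it. Rmrp, the RNA of RNase MRP, was lower (−0.78 ± 0.18 SE, adjusted p = 0.0377) after standing 0.53 higher at 30 min than at 0 min.

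Lower genes were long. Among protein-coding genes the median RefSeq span from first to last base was 80.9 kb for the 208 lower genes and 22.7 kb for the 188 higher ones, beside 19.2 kb over all 18556 and 23.1 kb over those above the background level. Spans over 100 kb were held by 85 of the 208 lower genes (40.9%), 23 of the 188 higher ones (12.2%) and 2267 of all (12.2%). Among genes above the background level, 0.463% of those under 10 kb were lower, 2.13% of those from 30 to 100 kb, 4.64% of those from 100 to 300 kb and 3.89% of the 463 over 300 kb. The share of higher genes was between 1.27% and 1.61% in the bins under 300 kb, and 1 of the 463 longest genes was higher (0.216%). The large cytoskeletal and motor protein genes Dst (−0.53), Macf1 (−0.49), Ank2 (−0.54) and Dync1h1 (−0.52), named here after their values were seen, were among the lower ones.

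Long genes as a class lay lower on the late arrays. Over the 463 longest genes the median deviation from each gene's mean was 0.10, 0.02, 0.06 and 0.01 on the early arrays and −0.12, −0.04, −0.02 and −0.04 on the late ones, taken in the order 0, 30, 180 and 300 min with replicate 1 before 2. The sides did not overlap, and 180 min replicate 1 and 0 min replicate 1 were the extremes. The replicates at 0 min (0.10 and 0.02) and at 180 min (−0.12 and −0.04) stood nearly as far apart as the sides, whose median difference over these genes was −0.10. With a smooth trend on gene span taken out of each array, 218 genes were higher and 144 were lower, and the median spans were 30.5 and 57.4 kb. Without 180 min replicate 1, which also stood farthest from the other arrays in its correlation, they were 24.0 and 71.6 kb.

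**Figure D5:**
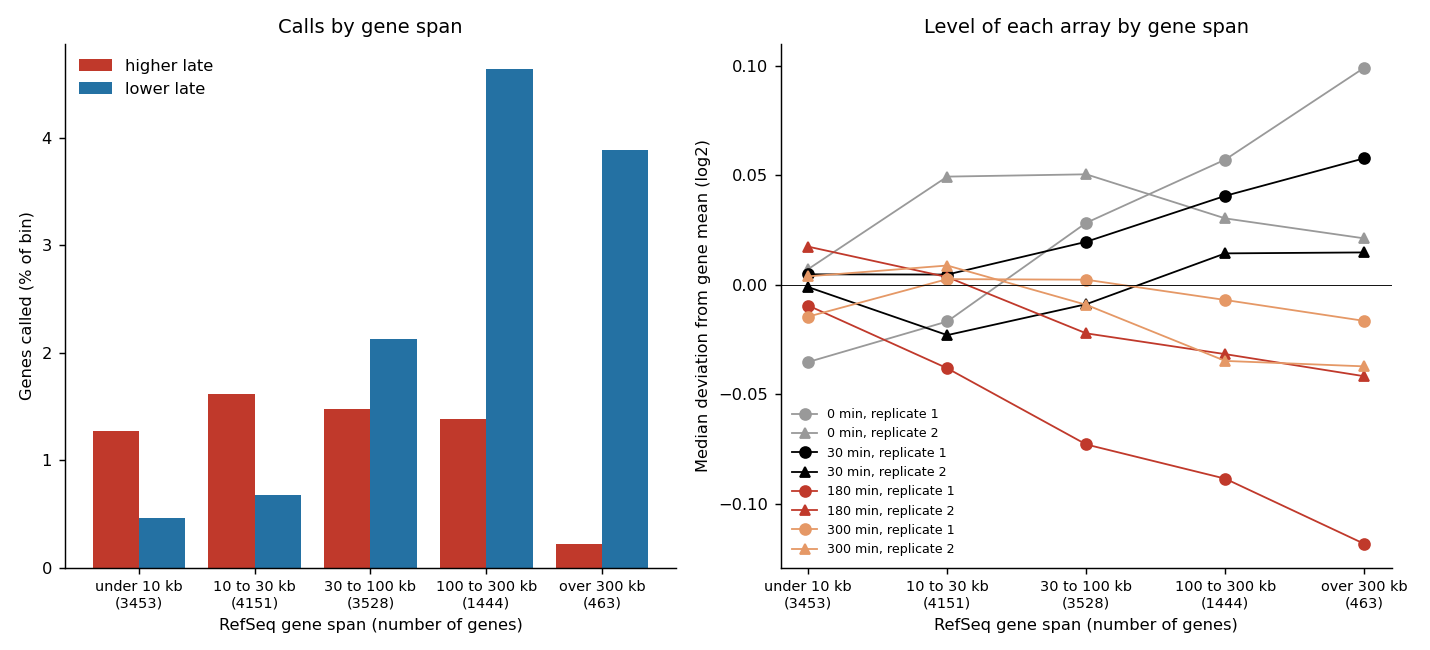
Left, percent of genes called higher (red) or lower (blue) late in 5 bins of RefSeq gene span, for protein-coding genes above the background level (number of genes in brackets). Right, median deviation from the gene mean (log2) of each array in the same bins; the early arrays lie above 0 and the late ones below 0 in the bin over 300 kb.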

How the data were processed

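The 8 arrays (Affymetrix Mouse Gene ST 1.0) were hybridised, per the labels' protocols, with biotin-labelled RNA from Qiagen RNeasy columns. The authors deposited 1 processed signal per transcript cluster and array, which was read as a log2 value from its range. The log base, the normalization software and the genome build are not given in the sources used here, and the log2 values were used as the authors deposited them.

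Of 35399 rows, 21789 carried 1 gene symbol, 1621 several and 11989 none; the latter kinds were left out. For each gene the transcript cluster with the highest mean over all 8 arrays was kept, which gave 19938 genes. Of these, 999 had several clusters, and all 56 other clusters of 30 called genes had the sign of the kept one. Many of the 56 came from the same gene and some repeated the same values, so they are not separate support. Sizes differed: the other clusters gave smaller differences for Zbtb20 (−0.43), Trps1 (−0.34), Snhg11 (0.41) and Marchf11 (0.05), among others, and larger ones for Tet1 (−0.87 and −0.60). Late and early arrays were compared with limma 3.58.1 in R 4.3.3 (lmFit and eBayes, 6 residual degrees of freedom, two-sided, Benjamini-Hochberg over all genes, threshold 0.05). A fit with a mean per time gave the differences between times. The number of arrays, 4 a side, limits the precision. The procedure was tested on simulated data.

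The 50 genes of the main account are the 15 largest called differences each way with no overlap between the sides, and the 10 largest each way among further such genes not called against 0 min at either late time, with unnamed loci left out. Up to 4 members of each of 33 lists (804 of 879 entries measured) with the smallest p, and a panel of known activity-regulated genes, were added. Further called members of a list were named to account for its count, and noncoding RNA genes, Malat1 and the large cytoskeletal genes after their values were seen. The groups, lists and genes were chosen with earlier results of these data known. Gene spans, promoters and microRNA sequences came from RefSeq tables for GRCm38.p6, which matched 21698 of the symbols. Other normalizations, filters, fits and left-out arrays or times were tried as alternatives. The place of 1 called snoRNA gene is not reported here.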

Additional observations from a re-analysis of the deposited data

Results flagged for a closer look

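Among the named genes and list members, 13 of 322 sides of 4 arrays had 1 array far from the other 3 by Dixon's test, fewer than the 16.1 that chance gives at 1 in 20. A side mixes 2 times, so an array can stand apart by its time or by itself. On the early side, 0 min replicate 2 was low for Kif26b (6.31, others 6.58 to 6.60), Bsn (6.66, others 7.22 to 7.28, not called) and Plxna1 (8.75, others 9.06 to 9.12), and 0 min replicate 1 was high for Homer1 (6.90, others 6.69 to 6.72). The array of 30 min replicate 1 was high for Sdf2l1 (6.0, others 5.81 to 5.83) and Apaf1 (6.72, others 6.56 to 6.57), neither of which was called.

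On the late side, 180 min replicate 1 was low for Zbtb20 (6.56, others 7.18 to 7.24) and Tnrc6c (7.15, others 7.38 to 7.40). The array of 180 min replicate 2 was low for Fat4 (6.40, others 6.51 to 6.52), Plxna1 (8.45, others 8.61 to 8.63) and Slc2a1 (7.11, others 7.36 to 7.40). That of 300 min replicate 2 was high for Ccnf (5.87, others 5.70 to 5.71) and low for the microglial marker Cd68 (6.49, others 6.88 to 6.95), which was not called.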

How the results depend on the processing

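The numbers of called genes moved most where fewer arrays or more rows were tested (limma throughout). They were 54 higher and 22 lower with every row tested, 60 and 28 against 0 min only, 150 and 86 against 30 min only, 44 and 31 with 180 min only, and 107 and 31 with 300 min only. Lower genes rose to 357 with dim genes left out, 333 with an intensity trend and robust prior, and 319 with array weights, beside 273, 262 and 290 higher genes. Without each array in turn the counts ranged from 104 to 230 higher and from 71 to 212 lower. Of the main calls, 84 of 215 higher and 57 of 211 lower genes were called whichever single array was left out, as were 26 of the 30 and 9 of the 20 genes of both sets of largest changes. Deviations of same-numbered arrays from their time means were little correlated between times (−0.09 to 0.09). This does not say whether same-numbered arrays shared a culture or dissection. The fit with the replicate block gave 202 higher and 200 lower genes.

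Differences that turned sign were all of genes not called with all 8 arrays. Arc was 0.15 and Npas4 1.80 against 0 min only. Against 30 min only Fos was −1.07, Fosb −0.22 and Nr4a1 −1.05. With array weights Fos was −0.071 and Nr4a1 −0.091. With 300 min only Fos was −0.051 and Cspg4 −0.042, and with 180 min only Nr4a1 was −0.013 and Trem2 0.040. Without each array in turn Fos ranged from −0.33 to 0.47, Nr4a1 from −0.41 to 0.40, Npas4 from −0.84 to 0.51 and Lum from −0.0024 to 0.20. For Npas4, Fos, Fosb, Arc and Nr4a1 the direction thus depends on which early time is used, while Egr1, Jun, Nr4a2, Fosl2 and Maff kept theirs in all 22 alternatives. The fit with the gene span trend removed was added after seeing the data.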
